A study of Mus musculus with 8 samples.

Results

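The genes described here are 10 genes of leukocyte adhesion, taken by name from the 54146 genes in the counts: the integrin α subunit genes *Itgam*, *Itgax*, *Itga4*, *Itga5*, *Itga6*, and *Itga9*, the β subunit genes *Itgb2*, *Itgb1*, and *Itgb7*, and the ligand gene *Icam1*. Bulk RNA-Seq was performed on FCGR4+ and FCGR4- macrophages of the epididymal white adipose tissue (eWAT), 1 library of each population from each of 4 mice, so that 8 libraries form 4 pairs. All mice carried the C57Bl6 genotype in the labels. They had eaten a high-fat diet without restriction for 24 weeks, the high-fat high-cholesterol (HFHC) diet of the study's methods, and then 30% less of it over 2 weeks, the caloric restriction of short term abbreviated stCR. An unrestricted group is not part of these libraries, so no value below measures an effect of stCR. Age at harvest, and whether and how the LDL receptor was lowered in these mice, are not given in the sources used here. Mice 1 and 2 have animal IDs that begin with S395 and mice 3 and 4 IDs that begin with S491, and what the prefixes stand for is not given.

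Macrophages were gated as CD45+ CD11b+ cells without CD3, B220, Ly6G, or SiglecF, and then split by FCGR4, the Fc receptor for IgG that defines the population. CD11b is the product of *Itgam*, so that gene is part of the gate that both populations passed. The comparison asks how the transcripts of the adhesion receptors differ between the 2 sorted populations of a mouse.

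Integrins are pairs of 1 α and 1 β subunit that span the membrane, bind a ligand outside the cell, and connect it to the actin cytoskeleton. The β2 subunit pairs with αL, αM, αX, or αD and occurs on leukocytes, where it binds ICAM-1, fibrinogen, and complement fragments. The β1 subunit has many α partners, among them α4 and α9 (VCAM-1, fibronectin, and other matrix proteins), α5 (fibronectin), and α6 (laminin), while β7 pairs with α4 or with αE and is best known for the homing of lymphocytes to the gut. ICAM-1, a surface protein of the immunoglobulin family, is the main cellular ligand of the β2 integrins and is itself made by macrophages and endothelium. In adipose tissue of obese animals, CD11c (*Itgax*) is a common marker of recruited, lipid-associated macrophages.

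Upstream sequence is shown for the 2 members with lower values in FCGR4+ macrophages in every mouse, *Itgb7* and *Itga5*, and for *Itgam*, the gate gene. Each run is the 250 bases before the gene's start in RefSeq on GRCm38.p6 (the assembly of mm10), written 5′ to 3′ on the gene's strand. Of the 10 members, 8 had an entry, and *Itgb2* and *Itga6* had none. Capitals mark matches on either strand to GAGGAA (the core bound by PU.1, a myeloid transcription factor), to AGATAA (a site of the GATA family), to TGTGGT (a site of RUNX factors), or to GGGCGG (the GC box). No 2 matches overlap here.
Itgb7 (chr15:102231936-102232185, minus strand): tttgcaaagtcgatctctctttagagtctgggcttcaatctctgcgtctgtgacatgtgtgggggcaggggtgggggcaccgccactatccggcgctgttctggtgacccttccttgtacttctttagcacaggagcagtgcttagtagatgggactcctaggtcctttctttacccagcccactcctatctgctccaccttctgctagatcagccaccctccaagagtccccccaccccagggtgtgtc
Itga5 (chr15:103366792-103367041, minus strand): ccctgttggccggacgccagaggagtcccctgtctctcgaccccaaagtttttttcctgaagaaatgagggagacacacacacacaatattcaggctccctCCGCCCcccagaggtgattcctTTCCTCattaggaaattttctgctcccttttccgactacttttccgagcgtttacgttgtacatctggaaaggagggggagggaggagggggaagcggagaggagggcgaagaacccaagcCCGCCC
Itgam (chr7:128062390-128062639, plus strand): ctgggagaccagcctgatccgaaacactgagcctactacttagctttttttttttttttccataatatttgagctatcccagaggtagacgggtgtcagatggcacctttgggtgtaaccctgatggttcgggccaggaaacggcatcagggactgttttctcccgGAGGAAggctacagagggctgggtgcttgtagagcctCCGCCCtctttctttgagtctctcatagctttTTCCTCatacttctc
The window of *Itgb7* held none of the 4 motifs. That of *Itga5* held 1 PU.1 core and 2 GC boxes, and that of *Itgam* held 2 PU.1 cores, 84 and 15 bases before the start, and 1 GC box. Among the 27025 windows of the same length in the RefSeq table, 23.13% held GAGGAA, 10.25% AGATAA, 14.18% TGTGGT, and 32.94% GGGCGG, so such matches are common and mark no known site. *Itgb7* (mm10 chromosome 15, 102215995 to 102231944) and *Itga5* (15, 103344286 to 103366763) lie on the minus strand of 1 chromosome, and *Itgam* (7, 128062640 to 128118491) and *Itgax* (7, 128129547 to 128150657) lie next to each other on the plus strand of another.

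Libraries held between 35992794 and 66856746 counts. Every member had at least 647 counts in each library and passed the filter on low counts (at least 10 counts in at least 4 libraries), which 17095 genes passed in all. Levels are given in CPM, the count of a gene divided by its library's total, on the usual CPM scale, after correction by edgeR's TMM factors. *Fcgr4* lay between 138.6 and 236.4 CPM in FCGR4+ libraries and between 48.5 and 82.9 CPM in FCGR4- libraries, and it was the higher of the pair in each mouse. Marker genes of cells outside the macrophage lineage differed too, and the values of 7 marker lists with a lower sum in FCGR4+ cells of every mouse are given here for all results below. Summed mast cell and basophil markers reached 15.1 to 30.8 CPM in FCGR4+ and 395.4 to 2172 CPM in FCGR4- libraries (10 of 11 tested genes called lower), and neutrophil markers 121.7 to 547.5 and 382.7 to 2391 CPM (5 of 9). The same ranges were 19.4 to 30.7 and 64.3 to 130.2 CPM for dendritic cells (5 of 10), 4.40 to 13.7 and 21.2 to 70.9 CPM for T and NK cells (7 of 12), and 536.6 to 649.0 and 740.2 to 1708 CPM for fibroblasts (6 of 10). B and plasma cell markers reached 23.3 to 33.9 and 53.8 to 255.8 CPM (2 of 8), and mesothelial markers 1.06 to 9.84 and 5.09 to 46.4 CPM (1 of 6). Macrophage markers summed to between 24675 and 55479 CPM in all libraries and were higher in the FCGR4+ library of each mouse. The part of other cells in the integrin values was not tested, and in bulk RNA fewer cells of a type cannot be told apart from less RNA per cell.

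None of the 10 members passed the threshold (adjusted P under 0.1 in edgeR, with the quasi-likelihood test and each mouse as a block), where 1.27% of the genes tested did, 0.0819% as higher and 1.19% as lower in FCGR4+ macrophages. The adjusted P values of the members by edgeR ran from 0.218 (*Itgb7*) to 0.911 (*Itgam*), 5 log2 fold changes were above and 5 below 0, and their median was -0.06, beside 0.00 for all tested genes. At an unadjusted P under 0.05 by edgeR stood 5 members, *Itga4*, *Itga6*, and *Itga9* with higher and *Itgb7* and *Itga5* with lower values, or 50% of the members against 9.77% of all tested genes (3.1% higher and 6.67% lower). These shares are no test of the members as a set, since the members were chosen with earlier results of these data known. Every member also had at least 647 counts in each library, while the tested genes include many with far fewer. DESeq2 with the same paired model called 3 members, *Itgb7* and *Itga5* as lower and *Itga6* as higher, against 5.99% of all genes. Without a filter on low counts edgeR called 2 members (2.77% of all genes), with its newer quasi-likelihood method 1 (3.68%), and in the S491 mice alone 1 (0.661%). Values had the same direction in 4 of 4 mice for 3 members, while 19.1% of all tested genes did, *Itga6* being higher (8.38% of all) and *Itga5* and *Itgb7* lower (10.7%). The populations did not overlap for 1 member, *Itga5*, as for 3.91% of all genes.

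**Figure D1:**
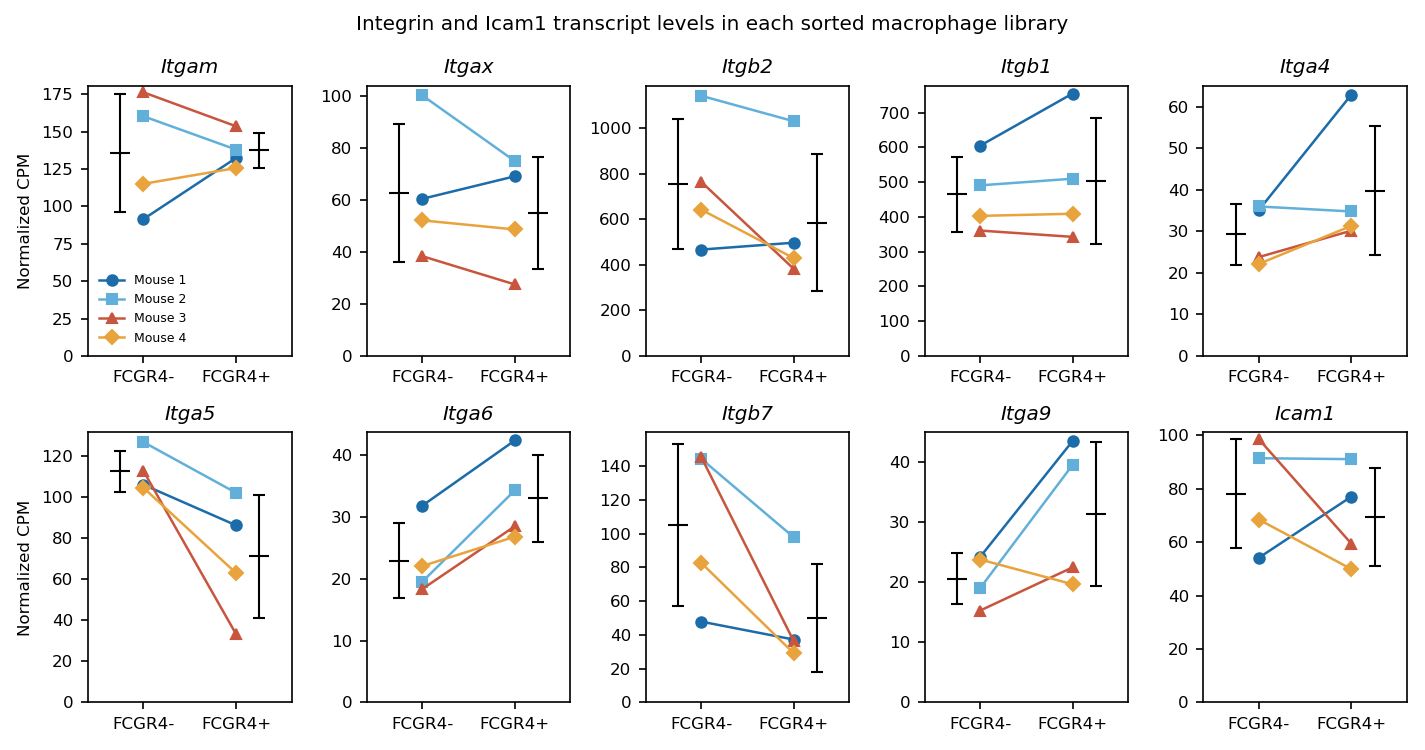
Normalized CPM (each axis from 0) of the 10 adhesion genes in FCGR4- and FCGR4+ macrophages, with 1 point per library, lines joining the populations of a mouse, and the mean ± SD of 4 mice beside the points. *Itga5* is the 1 gene with no overlap between populations (33.4 to 102.2 against 104.7 to 127.0 CPM), and the FCGR4+ values of *Itgam* lie within the range of its FCGR4- values (125.7 to 153.7 against 91.6 to 176.4 CPM).

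The largest log2 fold change, and the lowest P, belonged to *Itgb7*, the gene of the β7 subunit. In FCGR4+ macrophages it reached 37.2, 97.9, 36.3, and 29.1 CPM in mice 1 to 4, and in FCGR4- macrophages 47.9, 144.4, 145.4, and 82.7 CPM. Each mouse had the lower value in its FCGR4+ library, but the populations overlapped, since the FCGR4+ library of mouse 2 exceeded the FCGR4- libraries of mice 1 and 4. The means were 50.1 ± 32.0 and 105.1 ± 48.1 CPM (SD, n = 4 mice), and the log2 fold change was -1.11 (standard error 0.287, 95% interval -1.78 to -0.43, edgeR adjusted P = 0.218). *Itgb7* passed the threshold with DESeq2 (adjusted P = 0.00260), edgeR's newer method (0.0911), no filter (3.34e-04), and the S491 mice alone (0.0897), and its adjusted P reached up to 0.783 over all alternatives. Within the S395 mice alone the log2 fold change was -0.46, and within the S491 mice alone it was -1.78. The difference between the prefixes was -1.29 on the log2 scale (edgeR adjusted P = 0.303, with 0 of 17095 genes called in that test and 13.8% at an unadjusted P under 0.05). Of the members, 4 were at an unadjusted P under 0.05 in that edgeR test, *Itgb7*, *Itgb2*, *Icam1*, and *Itga5*. The test was added after the data were seen. Across mice 1 to 4, the log2 ratio of *Itgb7* was -0.36, -0.56, -2.0, and -1.51. The marker lists had no common order over the mice, since in FCGR4- libraries neutrophil, classical monocyte, and mesothelial sums were highest in mouse 3, mast cell and basophil and fibroblast sums in mouse 1, dendritic cell and T and NK cell sums in mouse 2, and B and plasma cell sums in mouse 4. Classical monocyte markers split by ID prefix in both populations, at 690.8, 750.4, 2863, and 2708 CPM in FCGR4+ and 659.6, 1162, 4140, and 2847 CPM in FCGR4- libraries of mice 1 to 4. The log2 ratio of *Itgb7* split the mice in the same way. With these mice, the ID prefix and the level of these markers cannot be told apart. The part of these cells in the result was not tested.

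*Itga5*, whose product forms the fibronectin receptor with β1, was also lower in FCGR4+ macrophages of every mouse. It reached 86.4, 102.2, 33.4, and 63.1 CPM in FCGR4+ and 106.2, 127.0, 112.8, and 104.7 CPM in FCGR4- libraries of mice 1 to 4. FCGR4- values lay close together, while FCGR4+ values spread over a wider range, with mouse 3 lowest. The log2 fold change was -0.77 (standard error 0.257, 95% interval -1.37 to -0.16, edgeR adjusted P = 0.368). Without mouse 3 it was -0.46, within the S395 mice -0.30, and within the S491 mice -1.27 (difference between prefixes -0.94, edgeR adjusted P = 0.354). DESeq2 gave an adjusted P of 0.0558 and edgeR with no filter 0.0209, and the highest value over the alternatives was 0.919.

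The other α members that pair with β1, *Itga6*, *Itga9*, and *Itga4*, had higher mean values in FCGR4+ macrophages. *Itga6*, the laminin receptor subunit, reached 42.3, 34.3, 28.5, and 26.8 CPM in FCGR4+ and 31.8, 19.5, 18.3, and 22.0 CPM in FCGR4- libraries of mice 1 to 4. The FCGR4+ value was the higher in 4 of 4 mice, and the populations overlapped only through the FCGR4- library of mouse 1. Its log2 fold change of 0.53 (standard error 0.149, 95% interval 0.18 to 0.89) had an adjusted P of 0.261 by edgeR and of 0.0563 by DESeq2, and up to 0.791 over the alternatives. *Itga9*, whose product binds VCAM-1 and matrix proteins, reached 43.6, 39.6, 22.5, and 19.7 CPM in FCGR4+ and 24.2, 19.04, 15.3, and 23.8 CPM in FCGR4- libraries. Mouse 4 went the other way, and the log2 fold change was 0.55 (standard error 0.232, edgeR adjusted P = 0.510), at 0.95 within the S395 mice and 0.12 within the S491 mice (difference between prefixes -0.81, edgeR adjusted P = 0.372). *Itga4*, the α4 subunit shared by β1 and β7, reached 63.0, 34.8, 30.2, and 31.4 CPM in FCGR4+ and 35.2, 36.02, 23.8, and 22.2 CPM in FCGR4- libraries. Mouse 1 had by far the highest FCGR4+ value, mouse 2 did not share the direction, and the log2 fold change was 0.41 (standard error 0.173, edgeR adjusted P = 0.510).

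*Itgb1* itself, the common partner of these subunits, differed little between populations of a mouse. Its levels were 755.1, 509.9, 342.6, and 409.1 CPM in FCGR4+ and 604.8, 490.8, 360.7, and 403.0 CPM in FCGR4- libraries of mice 1 to 4. Mice were ordered alike in both populations, with mouse 1 highest and mouse 3 lowest. The log2 fold change was 0.08 (standard error 0.131, 95% interval -0.23 to 0.39, edgeR adjusted P = 0.839), and its sign turned when counts were scaled by library size alone (-0.01).

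Of the β2 system, the subunit gene *Itgb2* reached 497.9, 1032, 382.8, and 429.9 CPM in FCGR4+ and 467.5, 1144, 765.6, and 643.3 CPM in FCGR4- libraries of mice 1 to 4. Mouse 2 stood above the others in both populations, and 3 of 4 mice had the lower value in FCGR4+ cells. The log2 fold change was -0.41 (standard error 0.197, 95% interval -0.87 to 0.06, edgeR adjusted P = 0.550), at -0.03 within the S395 mice and -0.81 within the S491 mice (difference -0.76, edgeR adjusted P = 0.314). *Itgam* reached 132.4, 138.1, 153.7, and 125.7 CPM in FCGR4+ and 91.6, 160.4, 176.4, and 115.2 CPM in FCGR4- libraries. Its FCGR4+ values lay inside the range of the FCGR4- values, 2 of 4 mice were higher, and the log2 fold change was 0.06 (standard error 0.166, 95% interval -0.33 to 0.45, edgeR adjusted P = 0.911), turning to -0.03 with library size alone. *Itgax*, the gene of CD11c, reached 69.1, 75.0, 27.5, and 48.7 CPM in FCGR4+ and 60.5, 100.2, 38.4, and 52.1 CPM in FCGR4- libraries. Lower in FCGR4+ cells of 3 mice, it varied 2.73-fold among FCGR4+ libraries alone, and the log2 fold change was -0.20 (standard error 0.157, 95% interval -0.57 to 0.17, edgeR adjusted P = 0.674).

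*Icam1*, the ligand, reached 77.1, 91.03, 59.3, and 49.9 CPM in FCGR4+ and 54.2, 91.4, 98.4, and 68.4 CPM in FCGR4- libraries of mice 1 to 4. Only mouse 1 had the higher value in FCGR4+ cells, and in mouse 2 both libraries were nearly equal. Its log2 fold change was -0.17 (standard error 0.215, 95% interval -0.68 to 0.33, edgeR adjusted P = 0.789). Direction depended on the mice, with 0.25 within the S395 mice, -0.62 within the S491 mice, and 0.00 without mouse 3 (difference between prefixes -0.85, edgeR adjusted P = 0.314).

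**Figure D2:**
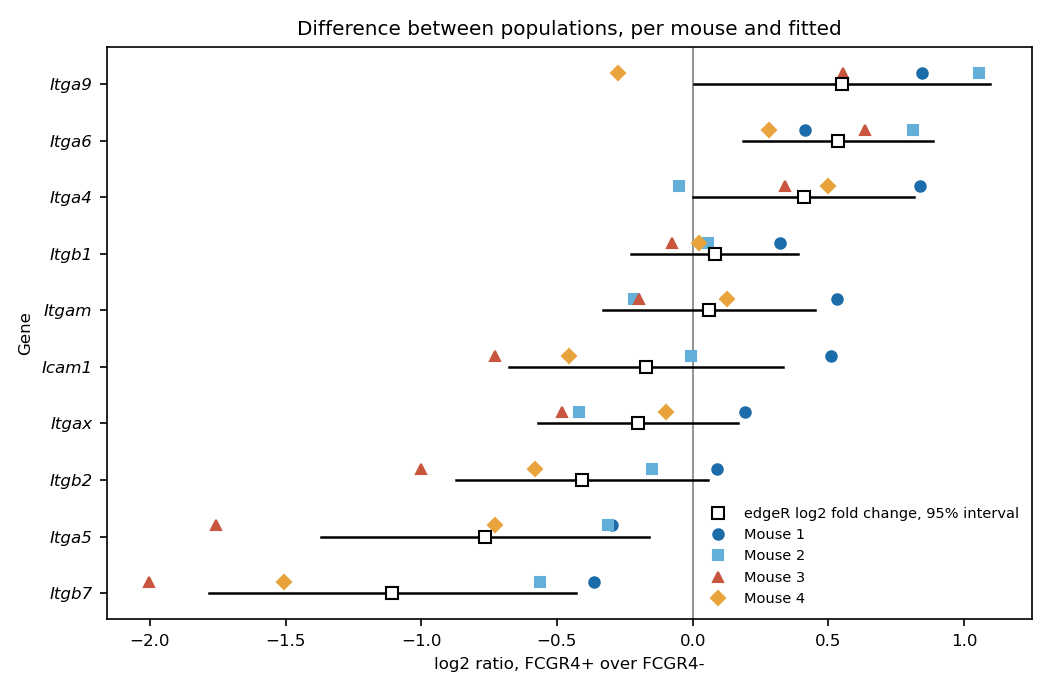
Per-mouse log2 ratio of FCGR4+ over FCGR4- macrophages for each adhesion gene, with points marked by mouse, and the edgeR log2 fold change with its 95% interval. *Itgb7* and *Itga5* lie below 0 in every mouse, *Itga6* lies above 0 in every mouse, and mice 3 and 4 give the lowest ratios of *Itgb7* and *Itga5*.

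Because integrin subunits act as pairs, levels were compared per kilobase of exon between α and β genes of the same pair, as the log2 of α over β in each library. The ratio of *Itga4* to *Itgb7* showed the widest gap. It was -1.58, -3.83, -2.60, and -2.23 in FCGR4+ and -2.78, -4.34, -4.94, and -4.23 in FCGR4- libraries of mice 1 to 4, higher in FCGR4+ cells in 4 of 4 mice by 1.52 ± 0.823 (SD, n = 4). Such a difference combines the changes of both genes given above, and only this pair holds *Itgb7*, the member of largest log2 fold change. With 4 pairs, the exact sign-flip test cannot go below a two-sided P of 0.125, the value it gave here (0.292 after Benjamini-Hochberg adjustment over 7 pairs). *Itga4* relative to *Itgb1*, its other partner, differed by 0.33 ± 0.291 and was higher in 3 of 4 mice (exact sign-flip P = 0.25).

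Among β1 pairs, *Itga5* relative to *Itgb1* was lower in FCGR4+ cells of 4 of 4 mice by a log2 difference of -0.86 ± 0.575 (exact sign-flip P = 0.125). *Itga6* relative to *Itgb1* was higher in 4 of 4 by 0.45 ± 0.330, the 1 ratio of 7 whose populations did not overlap (-5.30 to -4.73 against -5.80 to -5.34, exact sign-flip P = 0.125). The α5 and α6 ratios to the shared partner thus differed in opposite directions in every mouse. *Itga9* relative to *Itgb1* differed by 0.47 ± 0.547 (3 of 4 mice higher). For β2, the log2 ratios to *Itgb2* differed by 0.47 ± 0.390 for *Itgam* and by 0.21 ± 0.371 for *Itgax*, both higher in 3 of 4 mice with mouse 2 the exception, and the adjusted P values of the exact test over the 7 pairs were 0.292 for all but *Itgax* (0.375).

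**Figure D3:**
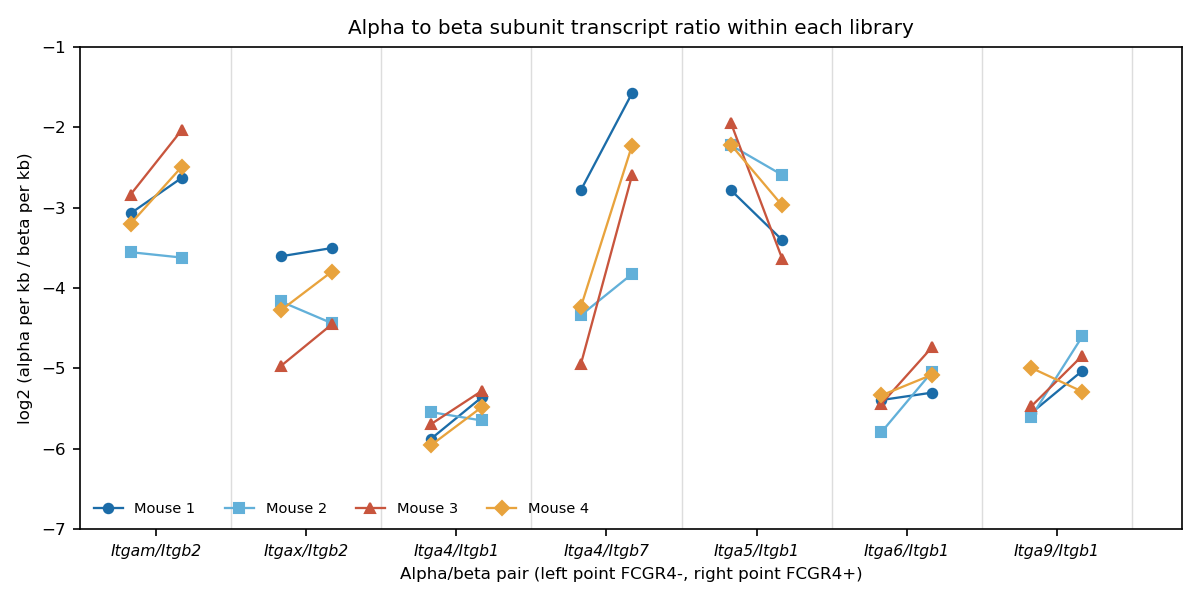
Log2 ratio of α over β subunit transcripts per kilobase for 7 pairs, with 1 point per library and lines joining the populations of a mouse. *Itga4*/*Itgb7* is higher in FCGR4+ than in FCGR4- cells in each mouse, *Itga5*/*Itgb1* is lower in each, and *Itga6*/*Itgb1* is the pair with separate ranges.

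Among the 4 α partners of β2, *Itgam* took the largest share of the per-kilobase sum. Its share was 55.8, 58.8, 79.3, and 66.9% in FCGR4+ and 52.2, 54.8, 69.8, and 60.1% in FCGR4- libraries of mice 1 to 4. In all 4 mice the FCGR4+ share was the higher, by 5.98 ± 2.75 percentage points (SD, n = 4, exact sign-flip P = 0.125), although mice differed more than populations did. *Itgax* took 26.5 ± 8.16% and 29.1 ± 9.47% in FCGR4+ and FCGR4- libraries and was lower in FCGR4+ cells in 4 of 4 mice (exact sign-flip P = 0.125). *Itgal*, the α subunit of LFA-1, took 6.95 ± 3.74% and 10.5 ± 2.23%, and *Itgad*, the αD subunit, 1.40 ± 0.277% and 1.19 ± 0.591%. With *Itgam* set over the exon bases it does not share with another gene, its share was 85.3 ± 5.48% and 82.0 ± 4.54%, again higher in 4 of 4 mice. This share, and the level over its own bases, would be too high if pairs spanning shared and own exons were counted for *Itgam*, which was not tested.

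The choice of length concerns how *Itgam* can be counted. Of its 5024 exon bases, 3450 (68.7%) also belong to *Gm49368*, a predicted gene on the same strand that runs on toward *Itgax*, and pairs on exons of 2 genes were left unassigned by the counting. *Gm49368* itself held only 5 to 85 counts per library. In the annotation *Itgam* has 30 exon blocks, of which 25 are shared whole and 4 in part, and the last one, of 1186 bases, is its own. Per kilobase, *Itgam* was at 27.4 ± 2.37 and 27.0 ± 7.82 CPM in FCGR4+ and FCGR4- libraries over all exon bases, and at 87.3 ± 7.57 and 86.3 ± 24.96 CPM over its own 1574 bases (SD, n = 4). The comparison of populations does not depend on that length. Overlap of exons with a gene on the opposite strand was 8.04% for *Itga4* (*Cerkl*) and 11.7% for *Icam1* (*Gm47079*, at most 1 count per library), and strand was not used in counting. In words of 50 bases, 8.02% of *Itgax* also occurs in its paralog *Itgad*, and no member shared a word with another member.

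**Figure D4:**
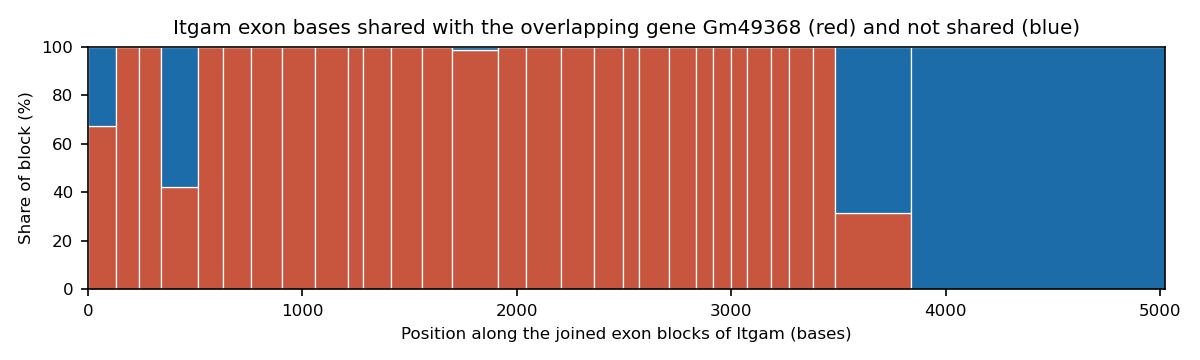
Exon blocks of *Itgam* joined from the first to the last along the axis, in bases to scale, with the percentage of each block shared with *Gm49368* (red) and not shared (blue). The single block with no shared base is the last one, of 1186 bases, and 1574 of 5024 bases are not shared in all.

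In order of level per kilobase, *Itgb2* (191.9 ± 98.7 CPM) and *Itgb1* (123.5 ± 44.3 CPM) led in FCGR4+ macrophages (SD, n = 4). They were followed by *Itgam*, *Itgb7* (18.1 CPM), *Icam1* (15.9 CPM), *Itga5* (14.4 CPM), *Itgax* (11.5 CPM), *Itga9* (4.08 CPM), *Itga6* (3.65 CPM), and *Itga4* (2.85 CPM). Neighbors in this order overlapped in range except *Itgb1* over *Itgam* and *Itgax* over *Itga9*. The FCGR4- order was the same but for *Itgb7* (37.9 CPM), which stood above *Itgam*, and *Itga5* (22.8 CPM), which stood above *Icam1* (17.9 CPM). There *Itgb2* (247.4 CPM), *Itgb1* (113.9 CPM), and *Itgb7* did not overlap with one another, and neither did *Itgax* (13.1 CPM) with *Itga9* (2.68 CPM). The place of *Itgam* depends on its length. Over its own bases (87.3 and 86.3 CPM in FCGR4+ and FCGR4- libraries) its mean stayed below that of *Itgb1* in both populations and stood above that of *Itgb7* in both.

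Likeness of pattern was measured for *Itgb7*, the member with the lowest P, as the root mean square difference of mean-centered log2 CPM over the 8 libraries. The 3 genes most like it were *Csf2rb*, the common β receptor chain of GM-CSF, IL-3, and IL-5 (0.299), *Sorl1*, a sorting receptor (0.313), and *Tnfaip2* (0.321), against a median of 0.997 over 17094 genes. Their log2 fold changes were -0.62, -0.62, and -0.54, and none passed the threshold (edgeR adjusted P from 0.527 to 0.623). Among members the nearest was *Itgb2* (0.443) and the farthest *Itga6* (1.16).

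Beyond the members, 92 genes of integrin biology in 7 lists were examined, of which 76 could be tested. None was called higher and 2 were called lower in FCGR4+ macrophages (2.63% of those tested, beside 1.19% of all genes), *Itga2b* and *Cd34*. At an unadjusted P under 0.05 by edgeR stood 4 higher and 17 lower of these 76 genes, where 3.1% and 6.67% of all genes did. DESeq2 called 2 higher (*Itgav* and *Vcam1*) and 17 lower, against 192 higher and 832 lower of all 17095 genes. Both counts of lower genes lean on genes near the filter. *Itga2b*, *Itga11*, *Itgae*, *Jam3*, *Vtn*, *Tnc*, *Lama2*, *Lama4*, *Skap1*, and *Bcar1* are in both. *Itga8* is only in the edgeR count, and *Fermt2* and *Esam* only in the DESeq2 count. The FCGR4+ means of all these were at most 1.01 CPM. None of them was tested where 10 counts were required in every library. Both genes called by edgeR belong to marker lists of other cells used here as well, *Itga2b* to platelets and *Cd34* to fibroblasts. Of the 4 platelet markers tested, 3 had negative log2 fold changes, while *Pf4* (platelet factor 4), which made up most of the list's sum, was at 313.9, 231.8, 1533, and 941.3 CPM in FCGR4+ and at 406.0, 193.9, 523.0, and 519.4 CPM in FCGR4- libraries of mice 1 to 4, higher in FCGR4+ cells of 3 mice. *Itga2b*, the αIIb subunit of the platelet fibrinogen receptor, was at 0.169, 0.208, 0, and 0.166 CPM in FCGR4+ and at 8.51, 4.38, 0.596, and 1.61 CPM in FCGR4- libraries of mice 1 to 4. Summed mast cell and basophil markers had the same order over mice in FCGR4- libraries, at 2172, 1203, 395.4, and 511.8 CPM. Eosinophil sums had it too, at 36.7, 23.3, 10.1, and 12.3 CPM, while platelet sums did not. Which cells held the *Itga2b* transcripts was not tested. *Itga2b* entered the test through its FCGR4- libraries, and it was not tested where 10 counts were required in every library. The populations did not overlap, levels were low in both, and the log2 fold change was -4.70 (edgeR adjusted P = 0.0396, lost without mouse 1 at 0.180, without mouse 2 at 0.133, with no replicate block at 0.164, and in the S491 mice alone at 0.189). *Cd34*, a sialomucin of progenitor, endothelial, and stromal cells, averaged 3.91 ± 0.927 and 18.4 ± 10.4 CPM (SD, n = 4), and its log2 fold change was -2.08 (edgeR adjusted P = 0.0699, but 0.109 to 0.149 with any 1 mouse left out, 0.102 with no replicate block, and 0.163 and 0.122 in the S395 and S491 mice alone).

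By role, the other α subunits had 10 of 12 genes tested, with 0 called higher, 1 lower, and a median log2 fold change of -1.63. That median includes *Itga2b*, *Itga3*, *Itga7*, *Itga8*, *Itga11*, and *Itgae*, with FCGR4+ means of at most 0.417 CPM. None of these was tested where 10 counts were required in every library. The rest of the list, *Itga1*, *Itgal*, *Itgad*, and *Itgav*, had log2 fold changes of -1.68, -0.80, 0.26, and 0.46. *Itgae*, the αE partner of β7, had a mean of 0.0504 CPM in FCGR4+ and 2.09 CPM in FCGR4- libraries, with no more than 11 counts in any FCGR4+ library, so that it entered the test through its FCGR4- libraries. *Jam3*, *Vtn*, *Lama2*, *Skap1*, and *Bcar1*, given below, were like *Itgae* not tested where 10 counts were required in every library. *Itgae* was lower in 4 of 4 mice with no overlap, and its adjusted P was 0.106 by edgeR, 4.5e-07 by DESeq2, and 3.6e-06 with no filter, up to 0.431 over 13 alternatives, 5 of which it passed. *Itgav*, which pairs with several β subunits, had the highest level (98.0 ± 22.7 and 71.5 ± 16.3 CPM) and was higher in FCGR4+ cells of 4 of 4 mice (adjusted P = 0.333 by edgeR and 0.0829 by DESeq2, up to 0.957 over the alternatives). Other β subunits had 2 of 5 genes tested and none called. *Itgb5*, a partner of αv, was at 405.8 ± 172.2 and 354.4 ± 63.2 CPM (edgeR adjusted P = 0.809), and *Itgb3* was at 0.771 and 1.40 CPM.

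Surface ligands had 8 of 10 genes tested, none called, and a median of -0.55. Of these, *Icam5*, *Jam2*, *Jam3*, and *Thy1* were not tested where 10 counts were required in every library. *Vcam1*, the ligand of α4 and α9 integrins, was at 251.8, 86.2, 163.0, and 66.8 CPM in FCGR4+ and at 122.7, 40.1, 92.4, and 60.3 CPM in FCGR4- libraries of mice 1 to 4. In 4 of 4 mice the FCGR4+ value was the higher, with overlap between populations, and its log2 fold change was 0.78 (standard error 0.187, edgeR adjusted P = 0.179, from 0.00378 to 0.919 over the alternatives, 3 of 14 of which it passed). *Jam3*, a junctional adhesion molecule, was at most 1.86 CPM in every library (adjusted P = 0.488 by edgeR and 0.0796 by DESeq2, up to 0.864 over the alternatives). Matrix and secreted ligands had 10 of 16 genes tested, none called, all 10 with negative log2 fold changes and a median of -0.64. Of these, *Vtn*, *Tnc*, *Lama2*, and *Lama4* had FCGR4+ means of at most 1.01 CPM. They were not tested where 10 counts were required in every library. *Spp1* (osteopontin, a ligand of α4, α9, and αv integrins) was the most abundant at 4443 ± 2529 and 7053 ± 6360 CPM, and *Vtn* and *Lama2*, vitronectin and a laminin chain, had means of at most 3.18 CPM. The adjusted P of *Vtn* was 0.227 by edgeR and 0.0285 by DESeq2 (up to 0.674 over the alternatives), and that of *Lama2*, lower in 4 of 4 mice, was 0.274 by edgeR and 0.00109 by DESeq2 (up to 0.445).

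Genes of inside-out activation, which switch integrins to the ligand-binding state, had 17 of 18 tested, none called, and a median of 0.08. *Rap1b*, the small GTPase that recruits talin, was the most abundant at 1527 ± 277.1 and 1193 ± 147.1 CPM (edgeR adjusted P = 0.511). *Apbb1ip* (RIAM, its effector) was at 28.2 ± 8.39 and 19.5 ± 4.62 CPM (edgeR adjusted P = 0.315), and *Skap1*, an adaptor best known in T cells, was at 0.513 and 2.45 CPM (adjusted P = 0.409 by edgeR and 0.0158 by DESeq2, up to 0.724 over the alternatives). Outside-in signaling and focal adhesion genes had 17 of 17 tested, none called, and a median of -0.16, with *Zyx* (zyxin) at 246.4 ± 40.2 and 308.1 ± 53.7 CPM and *Bcar1* and *Tgfb1i1* at means of at most 2.02 CPM. Both of the latter were lower in 4 of 4 mice, and edgeR gave adjusted P values of 0.220 and 0.233, DESeq2 of 0.0130 and 0.0321 (up to 0.633 and 0.765 over the alternatives). Of selectins and other adhesion molecules, 12 of 14 were tested, 1 was called lower (*Cd34*), and the median was -0.29. *Cd82*, a tetraspanin that associates with integrins, was at 40.2, 48.5, 26.3, and 24.4 CPM in FCGR4+ and at 48.2, 60.1, 65.0, and 51.9 CPM in FCGR4- libraries of mice 1 to 4. Each mouse had the lower value in FCGR4+ cells, the populations overlapped narrowly, and the log2 fold change was -0.74 (adjusted P = 0.279 by edgeR and 0.0291 by DESeq2, up to 0.941 over the alternatives). *Cd44*, the hyaluronan receptor, had the highest mean over both populations, at 477.1 ± 114.5 and 457.1 ± 58.7 CPM (edgeR adjusted P = 0.944).

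**Figure D5:**
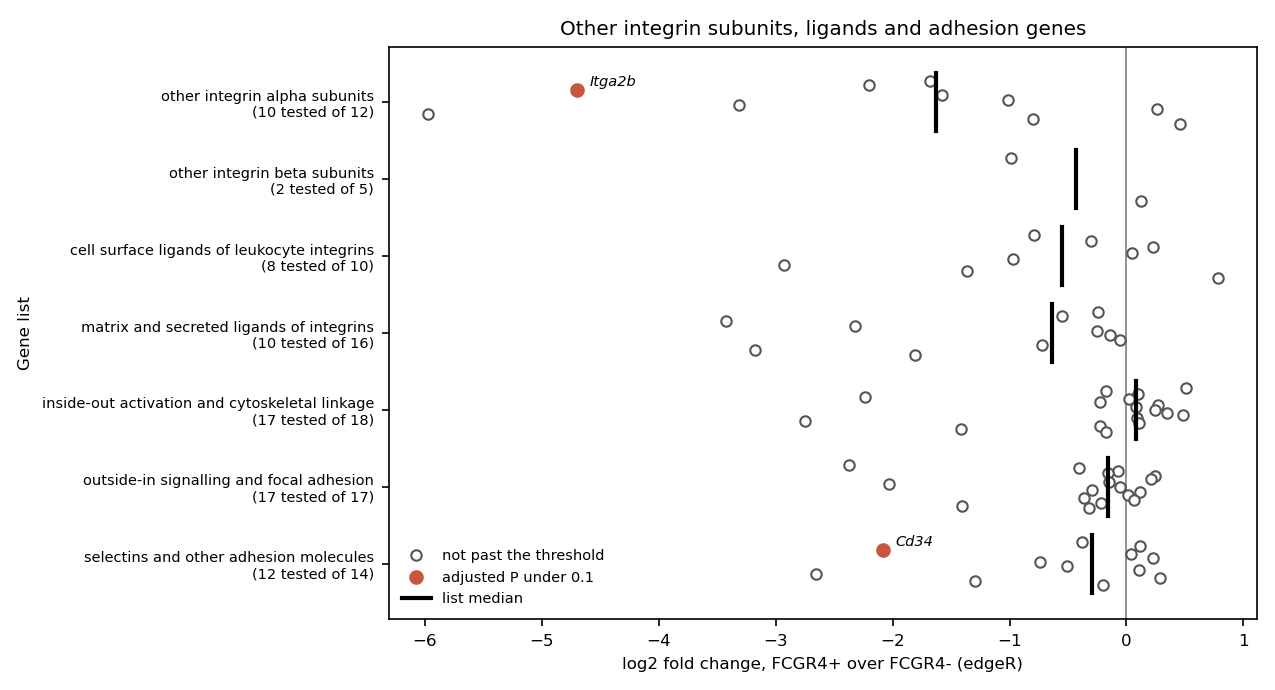
Log2 fold change (FCGR4+ over FCGR4-) of each tested gene in the 7 adhesion lists other than the members, with the genes past the threshold marked and the median of each list as a line. The 2 marked genes are *Itga2b* and *Cd34*, both lower, and the list medians run from -1.63 (other α subunits) to 0.08 (inside-out activation). The median of the other α subunits is over 10 genes, several of which had FCGR4+ means of at most 0.417 CPM.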

How the data were processed

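The authors mapped reads to mm10 with STAR and counted read pairs on genes with featureCounts (1.6.3 in the file's own record, GENCODE M18), and these raw counts are what was deposited, for 54146 genes (54079 with a symbol, 0 per-sample columns left out). Strand was ignored, a pair with several mapping places added a count to each, and pairs on 2 genes were not assigned. Total counts ran from 35992794 to 66856746 per library, where 3 counts equal 0.0440 to 0.0883 CPM, a limit that covers counting error only.

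The 17095 genes that reached 10 counts in 4 or more libraries were normalized by TMM (factors 0.937 to 1.11) and fitted with edgeR 4.0.16 (quasi-likelihood test at this version's defaults, R 4.3.3) with mouse as a block and Benjamini-Hochberg adjustment over all genes, called at 0.1. The pairing is the mouse number in the labels, from 1 animal each, and deviations from the population means correlated by 0.291 to 0.428 within a mouse (median between mice -0.0615). Standard errors are the log2 fold change over the square root of F. Per-mouse ratios used a prior count of 2. Partner ratios and shares used the deposited exon length and an exact two-sided sign-flip test over 4 mice. The fits were tested on simulated data. Alternatives included DESeq2 1.42.0.

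The members and gene lists were chosen with earlier results of these data known, and 1 gene of the lists is not reported here. Named were all members, every listed gene past the threshold, the most abundant gene and the 2 of lowest P per list, and the 3 genes most like the member of lowest P. Exon overlaps come from the deposited exon coordinates. Shared words use GENCODE M21, and upstream sequences RefSeq on GRCm38.p6, of the same build. Each library is 1 sorted population of 1 mouse.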

Additional observations from a re-analysis of the deposited data

Results flagged for a closer look

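Over 37 groups of 4 values (levels of the members in each population, their per-mouse ratios, and the partner ratio differences), 1 mouse lay apart from the other 3 by more than Dixon's 95% critical value in 3 groups, where chance alone flags about 1 group in 20, or 1.85 of them. *Itga4* in FCGR4+ macrophages had a gap of 0.859 of the range, with 63.0 CPM in mouse 1 and 30.2 to 34.8 CPM in the other mice. *Itgb7* in FCGR4+ macrophages had a gap of 0.882, with 97.9 CPM in mouse 2 and 29.1 to 37.2 CPM in the others. The difference of the *Itga4*/*Itgb1* ratio between populations had a gap of 0.833, with -0.10 in mouse 2 and 0.42 to 0.52 in the others on the log2 scale.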

How the results depend on the processing

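Of the 10 members, 0 passed the threshold in the paired fit. DESeq2 called 3, no filter on low counts 2, the newer quasi-likelihood method 1, and the S491 mice alone 1, and the other alternatives, each mouse left out included, called 0. Genes called numbered 217 in the paired fit, 1024 with DESeq2, 629 with the newer method, 1054 with no filter, 113 in either pair of mice with 1 ID prefix, 76 at a threshold of 0.05, and 84 to 163 with 1 mouse left out. Without the pairing (no replicate block), 48 genes and 0 members were called. With library size alone 244 genes passed, 8 of them higher and 236 lower against 14 and 203, and the median of all genes moved to -0.09. The cause of these differences was not tested.

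Signs turned for 3 members near 0 on the log2 scale. *Itgam* came to -0.029 with library size alone, -0.10 without mouse 1, and -0.059 in the S491 mice, *Itgb1* to -0.0086 and -0.049 with library size alone and in the S491 mice, and *Icam1* to 0.0037 without mouse 3 and 0.25 in the S395 mice. With each mouse left out, log2 fold changes ran from -0.10 to 0.15 for *Itgam*, -0.33 to -0.12 for *Itgax*, -0.58 to -0.23 for *Itgb2*, 0.00 to 0.12 for *Itgb1*, 0.26 to 0.55 for *Itga4*, -0.93 to -0.46 for *Itga5*, 0.44 to 0.62 for *Itga6*, -1.36 to -0.82 for *Itgb7*, 0.37 to 0.82 for *Itga9*, and -0.40 to 0.00 for *Icam1*. Over *Itgam*'s own exon bases, chosen after the data were seen, shares among β2 partners in FCGR4+ cells moved to 85.3% for *Itgam*, 11.2% for *Itgax*, 2.96% for *Itgal*, and 0.576% for *Itgad*. Differences of the log2 partner ratios ran from 0.36 to 0.65 for *Itgam*/*Itgb2*, 0.10 to 0.37 for *Itgax*/*Itgb2*, 0.26 to 0.47 for *Itga4*/*Itgb1*, 1.24 to 1.85 for *Itga4*/*Itgb7*, -1.02 to -0.58 for *Itga5*/*Itgb1*, 0.35 to 0.58 for *Itga6*/*Itgb1*, and 0.29 to 0.72 for *Itga9*/*Itgb1* with each mouse left out. With 4 mice, no exact test can pass 0.05. The members had 647 or more counts in each library, and an effect of depth was not tested.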
